A study of Mus musculus with 15 samples.

Results

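The genes described here are the 4 enzymes named for renal dopamine synthesis and breakdown: Ddc, Maoa, Maob and Rnls. They were taken from a table of 47069 mouse genes by their symbols, each of which matched 1 row. The choice was made with their values in the 12 tubule and 3 whole kidney libraries known, so their levels are given as a description, without tests. The study compared single microdissected proximal tubules of the segment labelled PTS2 with whole kidney, to ask how far whole kidney values show genes of a single cell type. All libraries came from male C57BL/6 mice aged 2 months, with no treatment named. The 12 tubule libraries formed 3 sets, m1, m2 and m3, with 4 replicates each. The labels do not say what the letter m stands for or which animals the libraries came from, so p-values measure only the spread between these libraries.

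The proximal tubule is the main site of dopamine formation in the kidney. Its cells take up filtered L-DOPA and decarboxylate it, and the dopamine acts on nearby receptors to lower sodium reabsorption. It is removed by oxidative deamination, by methylation and by conjugation. Ddc encodes dopa decarboxylase, which forms dopamine from L-DOPA and serotonin from hydroxytryptophan. Maoa and Maob encode the monoamine oxidases of the outer mitochondrial membrane, a pair of related flavoenzymes that deaminate dopamine. Rnls encodes renalase, a flavoprotein first described as a circulating amine oxidase made by the kidney, whose action on catecholamines has since been disputed.

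Values were TPM, abundances scaled to transcript length and to a common total in each library, so levels can be set side by side between genes. TPM hold no record of sequencing depth. The depth is therefore unknown, and no detection limit can be given. The PTS2 label was set beside marker genes. Markers of all proximal segments summed to between 18312 and 24649 TPM in the tubules and between 15866 and 17033 TPM in whole kidney. The summed S1 markers were at 5.83% of their kidney level, the summed S2 markers at 86.2% and the summed S3 markers at 244%. The S2 markers differed in direction. Slc22a6 averaged 585 TPM in the tubules and 486 TPM in whole kidney, and Slc22a8 68.0 and 272 TPM. Most of the S1 sum in the tubules was Slc2a2, at 49.3 TPM against 118 TPM in whole kidney. Slc5a2 was at 0.70 against 621 TPM and Slc5a12 at 0.10 against 119 TPM. Of the 3 S3 markers, 2 were above every kidney library. These were Slc7a13, at 1803 against 773 TPM, and Slc22a7, at 1219 against 333 TPM. The third, Atp11a, was at 557 against 360 TPM with overlap. Replicate 3 of m3 carried thick ascending limb markers at 1441 TPM in sum. The other 11 tubules had at most 55.8 TPM, a value reached in replicate 4 of m1.

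Ddc (ENSMUSG00000020182) lies on the minus strand of chromosome 11, from 11814101 to 11898144 of mouse build GRCm38. Maoa (ENSMUSG00000025037) lies on the plus strand of the X chromosome, from 16619698 to 16687818. Maob (ENSMUSG00000040147) lies beside it on the minus strand, from 16709282 to 16817366. The annotated ends of these paralogs face each other across 21463 bases, so that their transcripts do not overlap. Rnls (ENSMUSG00000071573) lies on the minus strand of chromosome 19, from 33137747 to 33392295. GENCODE annotates all 4 as protein coding, whereas the RefSeq gene table of build GRCm38.p6 lists Rnls as a transcribed pseudogene. An antisense transcript overlaps Ddc, and it did not exceed 0.06 TPM in any library.

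Ddc was by far the most abundant of the 4 enzymes, and its level divided the tubules by set. In m1 its values were 105.5, 101.2, 101.1 and 102.2 TPM in replicates 1 to 4. In m2 they were 104.9, 101.1, 99.1 and 97.1 TPM. In m3 they were 64.1, 64.3, 62.6 and 69.2 TPM. Every m3 tubule was therefore lower than every m1 and m2 tubule, and the spread inside each set was small.

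The mean of Ddc was 102.5 ± 2.08 TPM for m1 tubules, 100.5 ± 3.32 TPM for m2 tubules and 65.03 ± 2.85 TPM for m3 tubules (SD over 4 libraries). The m3 mean was 64.1% of the mean of the other sets. The difference was -0.64 ± 0.03 on the log2(TPM + 1) scale (SE, each library taken as independent). It was -0.70 with median-of-ratios rescaling and -0.66 with quantile normalization. It was -0.62 with m1 replicate 4 and m3 replicate 3, the tubules with the highest thick ascending limb markers, both left out. Of 11300 genes measured at a mean of at least 1 TPM in the tubules, 1.03% had all m3 libraries lower than all other tubules, 2.63% had all of them higher, and 3.65% had either. Among the 4 enzymes 1 separated m3 in this way, with 3 of the 4 reaching that level. The sums of endothelial markers ranged from 11.0 to 36.5 TPM in m3, from 12.7 to 21.5 TPM in m1 and from 10.3 to 19.1 TPM in m2. Their part in the Ddc values was not tested.

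In whole kidney Ddc was at 120.5, 88.1 and 79.2 TPM in replicates 1, 2 and 3, with a mean of 95.9 ± 21.7 TPM (SD, n = 3). The 12 tubules averaged 89.4 ± 18.2 TPM, or 93.2% of the kidney mean. The kidney libraries lay further apart than the replicates of any tubule set, and 8 of the 12 tubules fell within the kidney range. The other 4 tubules, all of m3, were below it. Ordered by mean, the groups ran m1, m2, whole kidney and m3. The ranges of m1, m2 and whole kidney overlapped, while m3 overlapped none of them. The log2 difference of all tubules from whole kidney was -0.11 ± 0.20 (SE, each library taken as independent although Ddc divided by set). Its sign was not stable: it was 0.18 with median-of-ratios rescaling and 0.07 without kidney replicate 1. By mean abundance Ddc ranked 1685 among all genes in the tubules and 1670 in whole kidney. In bulk samples, fewer cells of a type and less RNA per cell cannot be told apart.

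**Figure D1:**
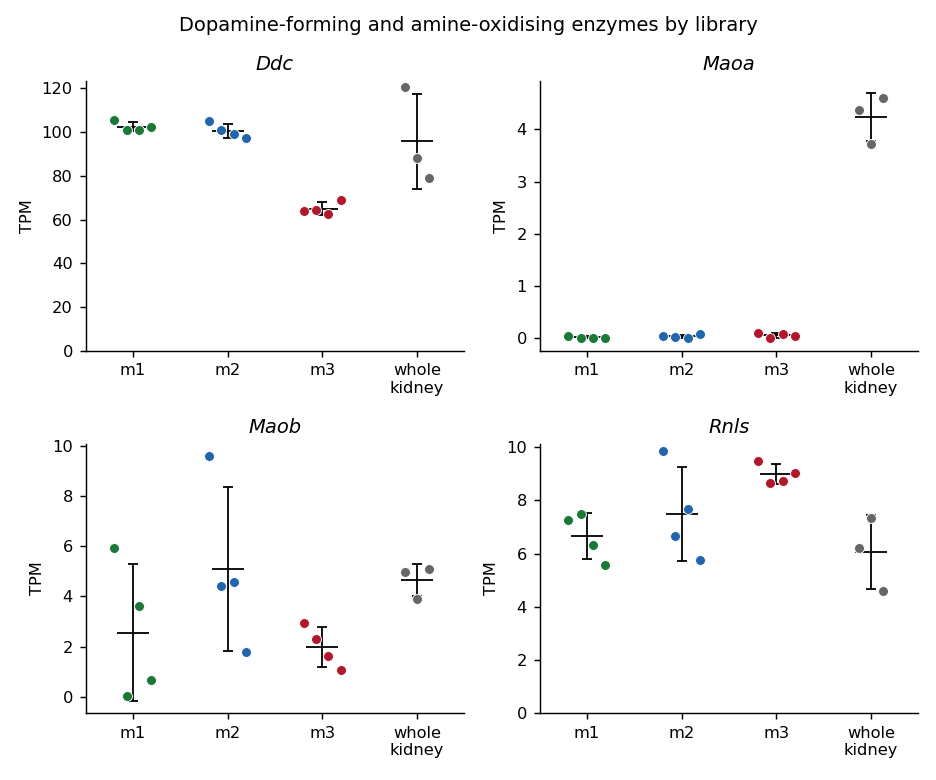
TPM of Ddc, Maoa, Maob and Rnls (vertical axes) in the tubule sets m1, m2 and m3 (4 libraries each) and in whole kidney (3 libraries). Points are libraries in order of replicate number, and black bars give the mean and SD; Ddc is near 100.5 TPM or above on average in m1 and m2 and 65.03 TPM in m3, and Maoa is at most 0.1 TPM in every tubule.

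Maoa was nearly absent from the tubules and present in whole kidney. In m1 it was at 0.04 TPM in replicate 1 and listed at 0 in the other replicates. In m2 its values were 0.03, 0.02, 0 and 0.07 TPM, and in m3 they were 0.1, 0, 0.07 and 0.03 TPM. Whole kidney had 4.37, 3.72 and 4.61 TPM, so that no tubule came near any kidney library.

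The mean of Maoa was 0.03 TPM over the 12 tubules and 4.23 ± 0.46 TPM (SD, n = 3) in whole kidney. The tubule mean was 0.709% of the kidney mean. The 3 sets overlapped, and their means were 0.01 TPM (m1), 0.03 TPM (m2) and 0.05 TPM (m3). On the log2(TPM + 1) scale, which understates differences of low genes, tubules were lower by -2.34 ± 0.08 (SE). With a pseudocount of 0.1 the difference was -5.10. Maoa had a mean of 0.871 TPM over all 15 libraries, under the minimum of 1 TPM for the test across genes. Among the 4 enzymes, 1 had no overlap between tubules and whole kidney. Of 12039 genes tested, 37.8% had no overlap, 32.0% had none and were lower in the tubules, and 5.76% had none and were higher. Without a filter on low values, 20.0% had no overlap and were lower.

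Markers of other renal cell types were also lower in the tubules than in whole kidney. All 3 markers of the distal convoluted tubule were below every kidney library. They summed to between 0 and 0.55 TPM in the tubules and to between 202 and 212 TPM in whole kidney. The 4 intercalated cell markers summed to at most 0.32 TPM in the tubules and to at least 127 TPM in whole kidney. The 4 principal cell markers summed to between 1.78 and 15.6 TPM, against at least 658 TPM. The 5 endothelial markers summed to between 10.3 and 36.5 TPM, against 130 to 137 TPM, and stood at 14.2% of the kidney level. The 3 podocyte markers stood at 1.62% of it, the 3 fibroblast and pericyte markers at 3.05% and both smooth muscle markers at 0.547%. Of the 4 macrophage markers, 3 were below every kidney library. The fourth, Csf1r, had a mean of 39.1 ± 14.8 TPM in the tubules (SD, n = 12) and 21.1 ± 2.65 TPM in whole kidney (SD, n = 3). Each of these lists had 0 genes at 0 in all tubules. Their part in the Maoa difference was not tested. In replicate 3 of m3, the library with thick ascending limb markers at 1441 TPM, Maoa was at 0.07 TPM.

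**Figure D2:**
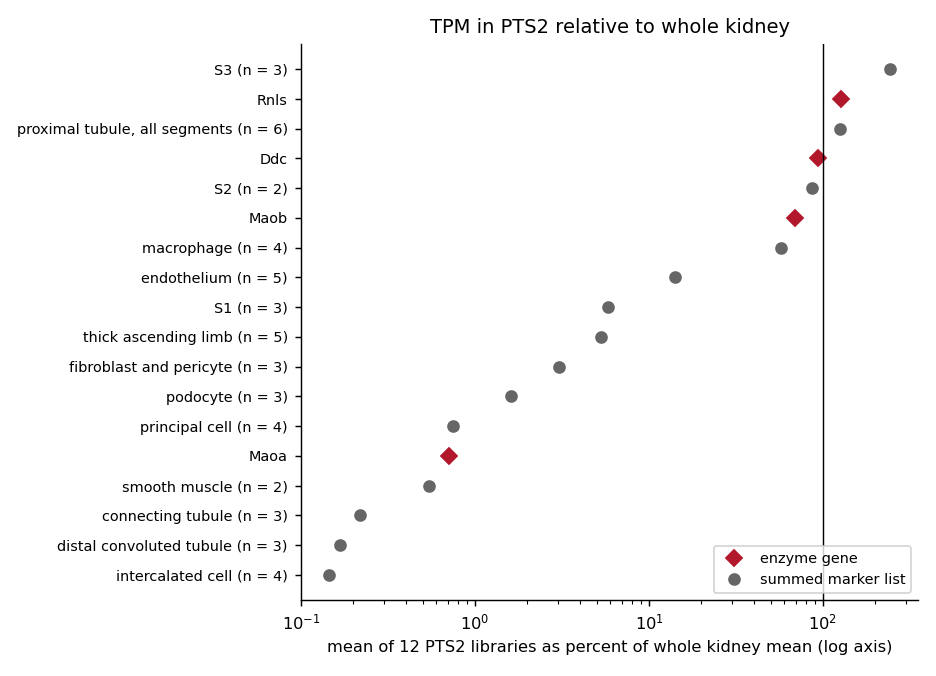
Mean TPM of 12 tubule libraries as a percent of the mean of 3 whole kidney libraries (horizontal log axis) for the 4 enzymes (diamonds) and for summed marker lists of renal cell types (circles, with the number of genes). Maoa stands at 0.709% and the other enzymes between 69.0% and 127%; the thick ascending limb value of 5.33% falls to 0.712% without m3 replicate 3, and the macrophage value includes Csf1r.

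Maob, the paralog of Maoa, was present in the tubules and varied more between them than the other enzymes with more than trace levels. In m1 its values were 5.93, 0.05, 3.61 and 0.65 TPM. In m2 they were 9.59, 4.41, 4.56 and 1.79 TPM, and in m3 2.92, 2.29, 1.62 and 1.07 TPM. Whole kidney had 4.96, 3.91 and 5.08 TPM. Tubules thus lay on both sides of the kidney range, with 8 below it, 2 within it and 2 above it.

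The mean of Maob was 3.21 ± 2.66 TPM in the tubules (SD, n = 12) and 4.65 ± 0.64 TPM in whole kidney (SD, n = 3), or 69.0% of the kidney mean. On the log2(TPM + 1) scale the difference was -0.68 ± 0.29 (SE), and its sign turned with quantile normalization (0.09). The coefficient of variation over the tubules was 83.1% for Maob, 20.3% for Ddc and 18.8% for Rnls. Ordered by mean, m2 was at 5.09 TPM, whole kidney at 4.65, m1 at 2.56 and m3 at 1.98. Each of these groups overlapped its neighbour in that order, while m3 was wholly below whole kidney. In each set the highest Maob value was that of replicate 1. Over the sets, replicates 1 ranged from 2.92 to 9.59 TPM and replicates 4 from 0.65 to 1.79 TPM. The summed S3 markers correlated with Maob across the 12 tubules with Pearson r = 0.59 (Spearman rho = 0.53), and with r = 0.32 without the 2 tubules farthest from the median. The summed macrophage markers, of which most was Csf1r, gave r = 0.53, and 0.53 without such tubules. The summed S2 markers gave r = -0.45, and -0.30 without them. As deviations from set means r was 0.69 for S3, 0.67 for macrophage and -0.46 for S2 markers. The S3 sums averaged 3314, 3629 and 3793 TPM in m1, m2 and m3. The part of these markers in the Maob values was not tested.

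The balance of both oxidases therefore differed between tubules and whole kidney. The ratio of Maoa to Maob TPM was 0.881, 0.951 and 0.907 in kidney replicates 1, 2 and 3. In the tubules it was at most 0.0432. The sum of both oxidases and Rnls was below Ddc in every library. Ddc was 8.93 ± 3.61 times that sum in the tubules (SD, n = 12) and 6.39 ± 1.18 times in whole kidney (SD, n = 3). These ratios overlapped, at 5.13 to 16.4 in the tubules and 5.55 to 7.75 in whole kidney. By set the means were 12.0 in m1, 8.83 in m2 and 5.96 in m3, where Ddc was lowest.

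Rnls had the smallest relative spread over the tubules. In m1 its values were 7.25, 7.48, 6.32 and 5.58 TPM, and in m2 9.86, 6.67, 7.66 and 5.77 TPM. Those of m3 were 9.48, 8.66, 8.73 and 9.04 TPM. Whole kidney had 6.22, 7.34 and 4.58 TPM. Of the 12 tubules, 7 were above every kidney library and 5 within their range.

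The mean of Rnls was 7.71 ± 1.45 TPM in the tubules (SD, n = 12) and 6.05 ± 1.39 TPM in whole kidney (SD, n = 3), or 127% of the kidney mean. The log2(TPM + 1) difference was 0.31 ± 0.18 (SE), 0.55 with median-of-ratios rescaling and 1.01 with quantile normalization. Ordered by mean, m3 was at 8.98 TPM, m2 at 7.49, m1 at 6.66 and whole kidney at 6.05, and each group overlapped its neighbour. The m3 values did not overlap those of m1 or of whole kidney. Rnls was thus highest in the set in which Ddc was lowest. This contrast lay between sets. The Pearson r of Rnls with Ddc was -0.60 over the 12 tubules (Spearman rho = -0.36), but 0.50 as deviations from set means. Across the 12 tubules Rnls correlated with the summed S3 markers at Pearson r = 0.72 (Spearman rho = 0.70), and at r = 0.49 without the 2 tubules farthest from the median. With the summed macrophage markers r was 0.79 (rho = 0.78), and 0.66 without such tubules. Most of that sum was Csf1r, with means of 29.6 TPM in m1, 38.7 in m2 and 49.2 in m3. The other 3 markers did not follow this order: the m1, m2 and m3 means were 0.29, 0.245 and 0.128 TPM for Adgre1, 1.64, 1.94 and 1.48 TPM for C1qa, and 3.38, 4.97 and 3.43 TPM for C1qb. The part of these markers in the Rnls values was not tested.

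The genes whose pattern over the 12 tubules was most like each enzyme were sought among 8118 genes whose tubule mean reached 5 TPM. For Ddc they were Arntl, Sgk1 and Igfbp1, with Pearson r of 0.95, 0.95 and 0.95. Arntl encodes a core clock transcription factor, Sgk1 a kinase induced by corticosteroids, and Igfbp1 a secreted protein that binds insulin-like growth factors. The m1, m2 and m3 means of Arntl were 6.71, 7.82 and 2.29 TPM, and those of Igfbp1 8.68, 12.0 and 2.30 TPM. Because Ddc fell into separate groups of tubules, these r mostly describe the step between sets. Within sets, as deviations from set means, r was 0.41 for Arntl, -0.17 for Sgk1 and -0.41 for Igfbp1.

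Among the 3 genes most like Maob were Gk5 and Insig1, with r of 0.91 and 0.91 (Spearman rho 0.90 and 0.87). Gk5 is a glycerol kinase homologue, and Insig1 a membrane protein that restrains sterol synthesis. As deviations from set means r was 0.88 and 0.89, and without the 2 tubules farthest from the median it was 0.78 and 0.80. For Rnls the 3 genes were Zfp523, Rhov and Stub1, with r of 0.91, 0.90 and 0.90, and 0.89, 0.85 and 0.83 within sets. For Maoa the 3 genes were Prelid3b, Atp13a2 and Brd2, at r of 0.84, 0.83 and 0.82. The Maoa values behind these were at most 0.1 TPM. None of the 3 recurred with ranks or with rescaled values. The 12 tubules share 3 set labels, and no test was made of these likenesses.

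The wider pathway was described with 12 lists of 75 genes, 74 of which were in the table. Of these, 51 reached a mean of 1 TPM over the 15 libraries and were tested with limma across all genes, with Benjamini-Hochberg adjustment. At an adjusted p under 0.05, 10 were higher and 25 lower in the tubules, which was 19.6% and 49.0% of those tested. Among all 12039 genes tested 51.2% passed, with 9.68% higher and 41.5% lower. The lists were chosen with earlier results of these data known, so their shares are set beside all genes only as a description. The median log2 difference was -0.28 for the lists and -0.27 for all genes. With median-of-ratios rescaling, which moved the median of all genes to 0.00, 17 list genes were higher and 17 lower. With quantile normalization 14 were higher and 25 lower.

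L-DOPA is formed from tyrosine by an enzyme that needs tetrahydrobiopterin. That enzyme's gene, Th, was listed at 0 in all kidney libraries and reached 0.01 TPM in 1 tubule. Of 8 genes for tyrosine hydroxylation and its cofactor, 6 were tested, 0 were higher and 2 were lower. One of these was Pts, an enzyme of tetrahydrobiopterin synthesis, at 115 ± 4.82 TPM against 140 ± 2.15 TPM, whose difference turned to 0.01 with median-of-ratios rescaling (adjusted p = 0.915). Qdpr and Pcbd1, which regenerate the cofactor, were at 507 and 786 TPM in the tubules and did not pass (adjusted p = 0.489 and 0.063). Their calls turned on the scaling. With quantile normalization both passed as lower (Qdpr -0.19, adjusted p = 0.0178, and Pcbd1 -0.38, adjusted p = 0.00123). With median-of-ratios rescaling Qdpr passed as higher (0.24, adjusted p = 0.0485), and Pcbd1 was at 0.09 (adjusted p = 0.593).

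Most transporters able to carry L-DOPA or other large amino acids were lower in the tubules. Of 8 such genes 7 were tested, with 6 lower and 1 higher, and their median log2 difference was -2.19. Slc7a8, the light chain of a basolateral exchanger of neutral amino acids, ranged from 2.72 to 12.1 TPM in the tubules with a median of 6.06 TPM. In whole kidney it was at 116, 89.1 and 92.2 TPM (log2 difference -3.87 ± 0.34, limma adjusted p = 6.09e-08). Its heavy chain Slc3a2 was at 22.5% of the kidney mean, and Slc7a7, another of its light chains, at 17.98%. Slc6a19, the apical sodium-coupled carrier of neutral amino acids, was at 4.22% of the kidney mean, with a log2 difference of -4.44. Slc3a1, the apical subunit that pairs with Slc7a9, was the exception. It was at 1179 ± 241 TPM in the tubules and 622 ± 16.4 TPM in whole kidney, with no overlap (log2 difference 0.89 ± 0.17, limma adjusted p = 0.000299). Slc7a9 itself was lower, at 46.8% of the kidney mean. The summed S1 markers stood at 5.83% of their kidney level in the same tubules, and their part in these differences was not tested.

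Ddc needs pyridoxal phosphate as cofactor. Pdxk, the kinase for the vitamin, did not pass, at 38.4 ± 4.96 TPM against 33.5 ± 3.80 TPM (adjusted p = 0.172). It passed as higher with median-of-ratios rescaling (0.47, adjusted p = 0.000458) and with quantile normalization (0.48, adjusted p = 0.000514). Of 6 other decarboxylases with this cofactor only Csad and Odc1 were tested. Csad, which acts in taurine synthesis, was at 447 ± 67.9 TPM in the tubules and 209 ± 13.1 TPM in whole kidney (log2 difference 1.08 ± 0.13, limma adjusted p = 3.17e-06). Hdc, which forms histamine, was at most 1.70 TPM in the tubules.

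Conjugation is another route of dopamine clearance. Sult1d1, a sulfotransferase that conjugates catecholamines, was at 499 ± 68.3 TPM in the tubules and 469 ± 85.8 TPM in whole kidney, a difference that did not pass (adjusted p = 0.556). With median-of-ratios rescaling it passed as higher (0.39, adjusted p = 0.0128), and with quantile normalization its sign turned (-0.03, adjusted p = 0.871). Sult1a1, of the same family, was at 4.77% of the kidney mean (log2 difference -3.66, limma adjusted p = 5.79e-09).

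Of 10 genes for methylation and aldehyde clearance, all were tested, 2 were higher and 4 lower. Aldh9a1, an aldehyde dehydrogenase for amino aldehydes, was higher at 489 ± 62.1 TPM against 307 ± 24.4 TPM. Aldh2, the mitochondrial aldehyde dehydrogenase, was at 677 ± 69.9 TPM against 628 ± 47.6 TPM and did not pass (adjusted p = 0.37). It passed as higher with median-of-ratios rescaling (0.39, adjusted p = 0.000592), and its sign turned with quantile normalization (-0.06, adjusted p = 0.627). Akr1b3, an aldose reductase, was lower at 58.7% of the kidney mean, and Comtd1, a putative methyltransferase, at 50.8%. The calls for Aldh3a2 and Aldh1a1 were lost under several settings.

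Of 9 genes for carriers of organic amines 4 were tested, and these 4 were higher in the tubules, with a median log2 difference of 0.45. The calls of 2 of them, Slc47a1 and Slc18a1, were lost under alternatives given with their values. Slc22a2, a basolateral organic cation transporter, ranged from 544 to 739 TPM in the tubules with a median of 607 TPM. In whole kidney it was at 327, 336 and 281 TPM, with no overlap (log2 difference 1.00 ± 0.09, limma adjusted p = 1.09e-07). The apical cation exchanger Slc47a1 was at 790 ± 99.6 TPM against 609 ± 58.6 TPM. The Slc47a1 call was lost with quantile normalization (adjusted p = 0.0982) and without kidney replicate 3 (adjusted p = 0.0578). Slc18a1, a vesicular monoamine transporter known from neuroendocrine cells, ranged from 257 to 588 TPM in the tubules with a median of 290 TPM. Whole kidney had 182, 303 and 195 TPM. Its log2 difference was 0.52 ± 0.20 (SE, limma adjusted p = 0.0375). That call was lost without kidney replicate 1 (adjusted p = 0.198), without kidney replicate 3 (adjusted p = 0.157) and under several other settings. The carriers under the level for testing did not share this direction. Slc18a2, related to Slc18a1, was at 0.582 ± 0.124 TPM in the tubules and 1.09 ± 0.148 TPM in whole kidney, and every tubule was below every kidney library. Slc29a4, a plasma membrane monoamine transporter, was also lower without overlap, at no more than 0.05 TPM in the tubules and 0.07 to 0.22 TPM in whole kidney. Slc22a3 overlapped between them. The dopamine and noradrenaline carriers Slc6a3 and Slc6a2 did not exceed 0.06 TPM in any library.

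**Figure D3:**
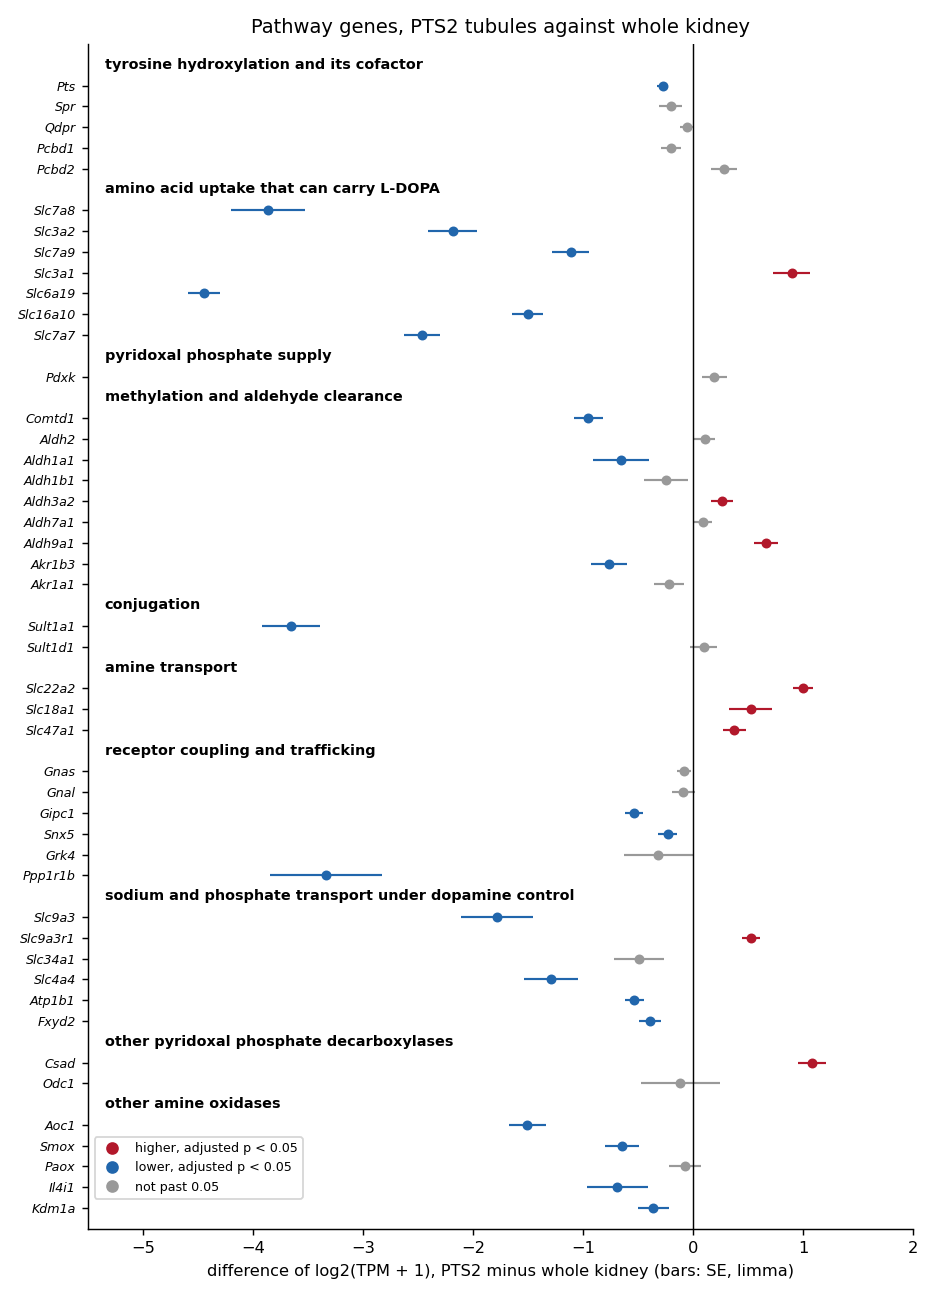
Difference of log2(TPM + 1) between 12 tubule and 3 whole kidney libraries (horizontal axis, bars SE from limma) for 46 of the 51 tested genes of the pathway lists, grouped by list. Most amino acid carriers lie to the left, down to -4.44 for Slc6a19, and the amine carriers drawn lie to the right, up to 1.00 for Slc22a2; colours give the call under the deposited scaling.

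Dopamine receptors were at or near 0 in these libraries. None of the 5 reached the level for testing. Drd4 was listed at 0 in all libraries, Drd1 did not exceed 0.12 TPM and Drd5 did not exceed 0.04 TPM. The enzymes after dopamine were also near 0, with Dbh at no more than 0.05 TPM. The 6 nerve and chromaffin markers together summed to at most 0.27 TPM in any tubule and 0.09 TPM in any kidney library. Of 7 genes for receptor coupling, 6 were tested, with 0 higher and 3 lower. The call for Snx5, a sorting nexin, was lost under both rescalings, and its sign turned with median-of-ratios (0.05, adjusted p = 0.567). Ppp1r1b, the phosphatase inhibitor DARPP, was at 10.5 ± 12.2 TPM in the tubules and 88.9 ± 8.16 TPM in whole kidney (log2 difference -3.34 ± 0.51, limma adjusted p = 4.43e-05). It was at 48.1 TPM in m3 replicate 3, the tubule with thick ascending limb markers, and at most 12.1 TPM in the others. Without that tubule the difference was -3.56 (adjusted p = 8.14e-08).

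Genes of sodium and phosphate transport under dopamine control, transporters and their partners, were mostly lower in the tubules. Of 7 such genes, all were tested, with 5 lower and 1 higher. Among all genes tested 41.5% were lower under the same scaling. The call for Fxyd2, a regulator of the sodium pump, was lost with median-of-ratios rescaling (adjusted p = 0.581). Slc9a3, the apical sodium-proton exchanger, ranged from 3.35 to 15.01 TPM with a median of 7.03 TPM, and was at 23.8, 30.3 and 28.0 TPM in whole kidney (log2 difference -1.78 ± 0.33, limma adjusted p = 0.00029). Slc9a3r1, the scaffold of the exchanger, was higher at 356 ± 30.1 TPM against 247 ± 23.1 TPM (log2 difference 0.52, limma adjusted p = 4.93e-05). The phosphate carrier Slc34a1 was at 3351 ± 985 TPM against 4544 ± 92.9 TPM and did not pass (adjusted p = 0.0788).

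Of 7 other amine oxidases, 5 were tested, with 4 lower and 0 higher. Aoc1, the copper enzyme that degrades diamines and histamine, ranged from 0.35 to 1.23 TPM in the tubules and from 3.55 to 4.03 TPM in whole kidney (log2 difference -1.51 ± 0.17, limma adjusted p = 1.04e-06). Smox, which oxidises spermine, was at 59.6% of the kidney mean, and its direction turned with quantile normalization (0.04, adjusted p = 0.827). The calls for Il4i1 and Kdm1a were also lost under both other scalings. Paox was at 2.47 ± 0.477 TPM against 2.66 ± 0.623 TPM and did not pass (adjusted p = 0.694), but was higher with quantile normalization (0.75, adjusted p = 0.000343).

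Some pathway genes differed between the tubule sets. In a limma F test over the 12 tubules, 49 list genes were tested and 5 passed (10.2%), against 3.02% of all 11300 genes. Since the lists were chosen with earlier results of these data known, these shares cannot test whether the pathway differs from other genes. The Sult1d1 means were 418 ± 33.8 TPM for m1, 565 ± 31.4 TPM for m2 and 514 ± 4.52 TPM for m3 (SD, n = 4; limma adjusted p = 0.00663). Slc18a1 was at 280 ± 13.5, 276 ± 17.2 and 423 ± 110 TPM (adjusted p = 0.0355). In m3 its replicates were at 369, 364, 369 and 588 TPM, all above the tubules of m1 and m2. It was thus highest in the set in which Ddc was lowest. Odc1, which makes putrescine, was at 772, 473 and 1154 TPM (adjusted p = 0.0438). Slc3a2 and Slc7a7 were highest in m1, at 79.2 and 38.8 TPM (adjusted p = 0.0451 and 0.0398).

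Of these calls only that of Sult1d1 held in each fit with 1 tubule left out. The number of list genes that passed was then between 1 and 7. The calls of Slc18a1, Odc1, Slc3a2 and Slc7a7 were also lost when low values were not filtered (adjusted p = 0.138, 0.183, 0.167 and 0.118). The single call left without m3 replicate 3 was again Sult1d1 (adjusted p = 0.0164).

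**Figure D4:**
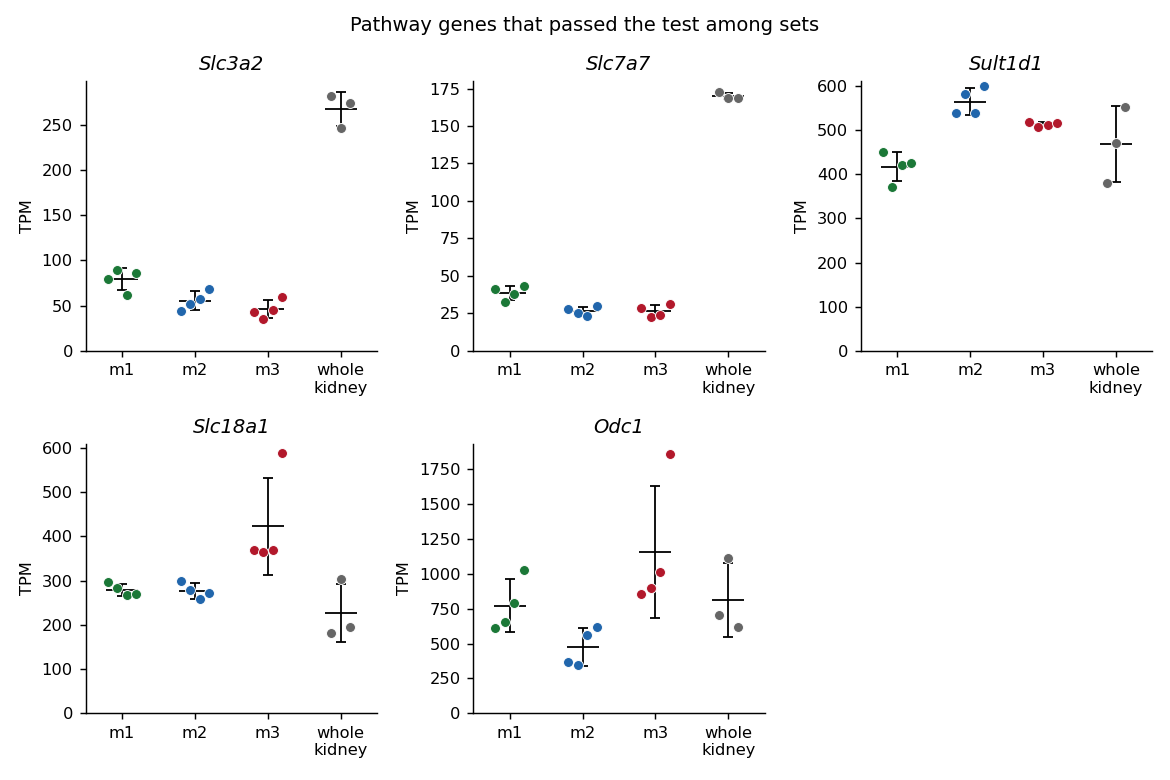
TPM (vertical axes) of the 5 pathway genes that passed the F test among sets, in m1, m2, m3 and whole kidney; points are libraries in order of replicate number and bars give mean and SD. Slc18a1 is above 363 TPM in each m3 tubule and below 299 TPM in the m1 and m2 tubules, and Sult1d1 is lowest in m1.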

How the data were processed

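RNA-Seq was made from 12 single proximal tubules and 3 whole kidneys, from cDNA amplified with a low-input kit, per the labels. The authors deposited 1 table of TPM values, a unit read from its columns, each of which sums to about 1000000. The submitters' processing notes list STAR 2.5.1b, RSEM 1.2.31 and build GRCm38.p5. Positions are from GENCODE M21 on GRCm38. The authors' 4 columns of means and standard errors were not used.

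Linear models on log2(TPM + 1) were fitted in R 4.3.3 by limma 3.58.1, whose prior variance followed mean abundance, for genes averaging 1 TPM or more. The set was a correlated block (correlation 0.0669) for tubules against kidney. SEs of the enzymes came instead from the variance of single libraries, without the set as a block. P-values were adjusted by Benjamini-Hochberg over all genes tested, with a threshold of 0.05. Fits were run on simulated data with independent noise, to see whether added shifts were recovered. The simulation held no correlation between libraries. Figures and summaries used Python 3.11.15. The enzymes and gene lists were chosen with earlier results of these data known. Named were the enzymes, list genes and the 3 genes most like each enzyme by Pearson r. Alternatives were a pseudocount of 0.1, other filters (none, 10 TPM), rescalings, no mitochondrial genes, a replicate block, no within-set correlation and each library left out. Some genes of the lists and likeness results are counted but not reported here by name.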

Additional observations from a re-analysis of the deposited data

Results flagged for a closer look

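In each set of 4 tubules, the gap between the highest or lowest library and its neighbour was set against the range of the set, for the enzymes, their ratios and the tested pathway genes. Of 171 such sets 12 had a library that stood apart. The nominal rate of the rule, 1 in 20, would give about 8.55 for independent, normally distributed values. The sets share libraries and the ratios reuse the enzymes, so this number is not a test of chance.

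Maoa was at 0.04 TPM in m1 replicate 1 and listed at 0 in the other m1 tubules, and the Maoa to Maob ratio of that tubule was 0.00675. In m2 replicate 4 the same ratio was 0.0391, and the next was 0.00454. Replicate 4 of m3 stood apart for Slc18a1 at 588 TPM (next 369.4), Slc34a1 at 5082 TPM (next 2561), Slc4a4 at 124.9 TPM (next 67.4) and Odc1 at 1853 TPM (next 1010). Replicate 4 of m1 stood apart for Slc34a1 at 4881 TPM (next 3409) and Slc7a9 at 108.8 TPM (next 86.1). Replicate 1 of m1 stood apart for Pdxk at 49.6 TPM (next 36.4) and Gnas at 475 TPM (next 421.9). Aoc1 was at 1.23 TPM in m1 replicate 2 (next 0.5).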

How the results depend on the processing

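The Ddc step between m3 and the other sets and the low Maoa level of the tubules kept their direction in all alternatives run for them. Log2 differences of tubules from kidney became 0.18 for Ddc, -2.14 for Maoa and 0.55 for Rnls with median-of-ratios rescaling, and -0.0058, -1.72 and 1.01 with quantile normalization. For Maoa it was -5.10 with a pseudocount of 0.1 and -2.40 without mitochondrial genes. With single libraries left out it ranged from -0.23 to 0.0661 for Ddc (the latter without kidney replicate 1) and from -2.41 to -2.29 for Maoa. Genes passing for tubules against kidney numbered 6161, and 9399 without a filter, 3113 at a mean of 10 TPM and 4761 to 6712 with single libraries left out. Genes passing among sets numbered 341, of which 5 were list genes. Without a filter there were 196 and 1, and 197 to 563 and 1 to 7 with single libraries left out. Counts over all genes moved by over 1.5 times without m1 replicate 1 (563), m2 replicate 2 (220) and m3 replicates 1, 2 and 3 (197, 226 and 209). With m1 replicate 4 and m3 replicate 3 both left out, chosen after seeing the data, there were 175 and 1. With the replicate number as a block there were 888 and 13. The labels do not say that a number marks a shared animal or day. Same-numbered pairs correlated at 0.0254 to 0.273 (mean 0.143), 7 of 12 over 0.1, against a mean of -0.0481 for the 36 other pairs. Of 12 libraries 9 correlated best with their own number, which is a hint from the data and not from the design. Some list genes changed direction and passed in the main fit or in the alternative. With median-of-ratios rescaling they were Qdpr 0.24, Gnas 0.21, Pts 0.0107 and Snx5 0.0538. With quantile normalization they were Kdm1a 0.16, Smox 0.0427, Gnal 0.74, Paox 0.75, Aldh1b1 0.58 and Aldh1a1 0.18. Sign changes in which neither fit passed, such as that of Pcbd1, are not in this list. Of the 3 genes most like each enzyme, those shared with the Pearson list under Spearman's rho were 0 for Ddc, 0 for Maoa, 1 for Maob and 1 for Rnls. With rescaling they were 1 for Ddc, 0 for Maoa and 1 for Maob, and 1 for Maoa without m3 replicate 3. The cause of these changes was not tested. No count test was made, since TPM keep no depth.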
